A study of Mus musculus with 2 samples.

Results

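The genes described here are 9 components, receptors and regulators of complement, chosen by gene symbol out of 32285 genes in the count files. They are the C1q chains C1qa, C1qb and C1qc, the central component C3, the C4 gene C4b, factor B (Cfb), the anaphylatoxin receptors C3ar1 and C5ar1, and Serping1, which encodes C1 inhibitor. All 9 were detected. They were followed through the cell classes of tumors that grew on the abraded peritoneal wall of mice, to ask how complement was divided between macrophages and stroma. Female C57BL/6 mice of 6 to 8 weeks had the peritoneal wall abraded and were injected intraperitoneally with syngeneic SO ovarian cancer cells, a mouse line that carries p53 -/-, Myc and Hras. From the following day the mice received daily intraperitoneal injections of either control IgG or an Activin A neutralizing antibody, so abrasion and SO cells are common to both groups. The labels give 7 mice for control IgG, 8 for the antibody and 10 days. The numbers of mice and days in the paper's account of its single-cell experiment are different ones. Tumor tissue was pooled over the mice of a group, dissociated and sequenced without selection of cell types as 1 library per group, so there was no replicate and no test between the groups, and the antibody cannot be told apart from any other difference between the 2 libraries.

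Complement is a cascade of plasma and tissue proteins that tags targets and releases inflammatory fragments. In the classical pathway C1q, assembled from the products of C1qa, C1qb and C1qc, binds a target and activates the proteases C1r and C1s. Of these, C1s cleaves C4 and C2. The alternative pathway runs through C3 and factor B, cleavage of C3 and C5 releases the C3a and C5a fragments that are sensed by C3ar1 and C5ar1, and C1 inhibitor blocks C1r and C1s. Most plasma complement is made by the liver, while tissue macrophages are a main source of C1q and fibroblasts are known to make C1r, C1s, C3 and C1 inhibitor.

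The libraries held 98174850 UMIs (control IgG) and 74117462 UMIs (antibody), of which 80208236 and 57416419 lay in 8770 and 6386 kept cells (a UMI is a unique molecular identifier and counts 1 captured RNA molecule). Each cell was placed in a class by marker genes that include no complement gene. A class is written "-like" because it rests on a score, and 245 of the 2256 macrophage-like and monocyte-like cells had scores of the 2 classes within 0.25 of each other. The macrophage-like class held 942 cells (10.7% of kept cells) in the control IgG library and 237 (3.71%) in the antibody library, and its 9 markers were each detected in 39.8% to 92.1% of its cells. The fibroblast-like class held 220 and 235 cells, with its 8 markers each in 49.0% to 100% of cells. The monocyte-like class held 711 and 366 cells and the mesothelial-like class 45 and 27. Leiden clusters, an alternative to the scores, placed 978 monocyte-like cells with the macrophages and 17 with the monocytes. Macrophage-like and monocyte-like cells are therefore not cleanly apart, which limits each contrast between them below. Doublets were not removed, and 19 kept barcodes occurred in both libraries. Levels are CPM, UMIs of a gene per 1000000 UMIs of a class. These are 3′ tag counts, so they are compared between classes for 1 gene and not between genes. All intervals are exact 95% intervals for counting error. They take no account of differences between cells, and so understate the error of a gene that few cells carry.

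The 9 genes lie on 5 chromosomes (GRCm38, GENCODE M21), all on the minus strand. The C1q genes are neighbours on chromosome 4, with C1qb (ENSMUSG00000036905) at 136880129 to 136886187, C1qc (ENSMUSG00000036896) at 136889804 to 136893065 and C1qa (ENSMUSG00000036887) at 136895917 to 136898803. Chromosome 17 holds C3 (ENSMUSG00000024164) at 57203970 to 57228136, C4b (ENSMUSG00000073418) at 34728380 to 34743882 and Cfb (ENSMUSG00000090231) at 34856374 to 34862518. C3ar1 (ENSMUSG00000040552) lies on chromosome 6 at 122847138 to 122856161, C5ar1 (ENSMUSG00000049130) on chromosome 7 at 16246743 to 16259540 and Serping1 (ENSMUSG00000023224) on chromosome 2 at 84765387 to 84775444. C4b has a near-identical copy, C4a, at 34809092 to 34823464 on chromosome 17. Of 421 windows of 80 bases in the last 500 bases of the longest C4b transcript, 103 (24.5%) were found letter for letter in a C4a transcript, so C4b values carry the uncertainty that reads of that part could not be assigned to 1 gene. C4a itself had 1 and 0 UMIs in macrophage-like cells and 4 and 3 in fibroblast-like cells.

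The 250 bases before the start of 1 gene of each side are shown, C1qb for the macrophage genes and C3 for the stromal genes (RefSeq, GRCm38.p6, minus strand, written 5′ to 3′ on the strand of the gene). C1qb lies at chr4:136886201-136886450 and C3 at chr17:57228137-57228386. Capitals mark matches to GGAAGT, the core that factors such as PU.1 bind, in C1qb, and to TTNNGNAA, a loose form of the C/EBP motif, in C3. Both strands were searched.
C1qb: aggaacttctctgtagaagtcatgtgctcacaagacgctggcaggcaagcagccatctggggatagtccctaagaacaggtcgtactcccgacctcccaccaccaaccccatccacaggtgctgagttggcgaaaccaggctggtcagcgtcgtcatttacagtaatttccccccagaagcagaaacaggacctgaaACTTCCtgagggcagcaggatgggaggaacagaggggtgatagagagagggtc
C3: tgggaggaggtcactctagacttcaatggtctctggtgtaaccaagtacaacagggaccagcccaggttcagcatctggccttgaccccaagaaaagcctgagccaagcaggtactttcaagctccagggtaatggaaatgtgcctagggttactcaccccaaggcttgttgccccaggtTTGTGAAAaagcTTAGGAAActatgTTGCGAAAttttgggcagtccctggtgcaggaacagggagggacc
GGAAGT, or its reverse complement ACTTCC, was found once in C1qb, once in C1qc and 2 times in C5ar1 among the 5 members that RefSeq start sites could be matched to (C1qb, C1qc, C3, C3ar1, C5ar1), and in 19.7% of 32851 promoters of the same length. TTNNGNAA was found at 3 places in C3, 1 of them on both strands, at 1 place in C1qc and at 1 place in C5ar1, against at least 1 match in 36.8% of all promoters. A match is a string of letters and not a shown binding site.

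Each member was higher in one of the macrophage-like and fibroblast-like classes than in the other. C1qa, C1qb, C1qc, C3ar1 and C5ar1 were higher in macrophage-like cells, and C3, C4b, Cfb and Serping1 in fibroblast-like cells, each with an interval of the log2 ratio away from 0 in both libraries. These counts, 5 and 4 of 9, stand beside 20.5% and 30.5% of 13682 genes that were higher in macrophage-like or in fibroblast-like cells by the same rule. The comparison lies within a library, so treatment does not enter it, but cells of 1 library are not replicates.

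**Figure D1:**
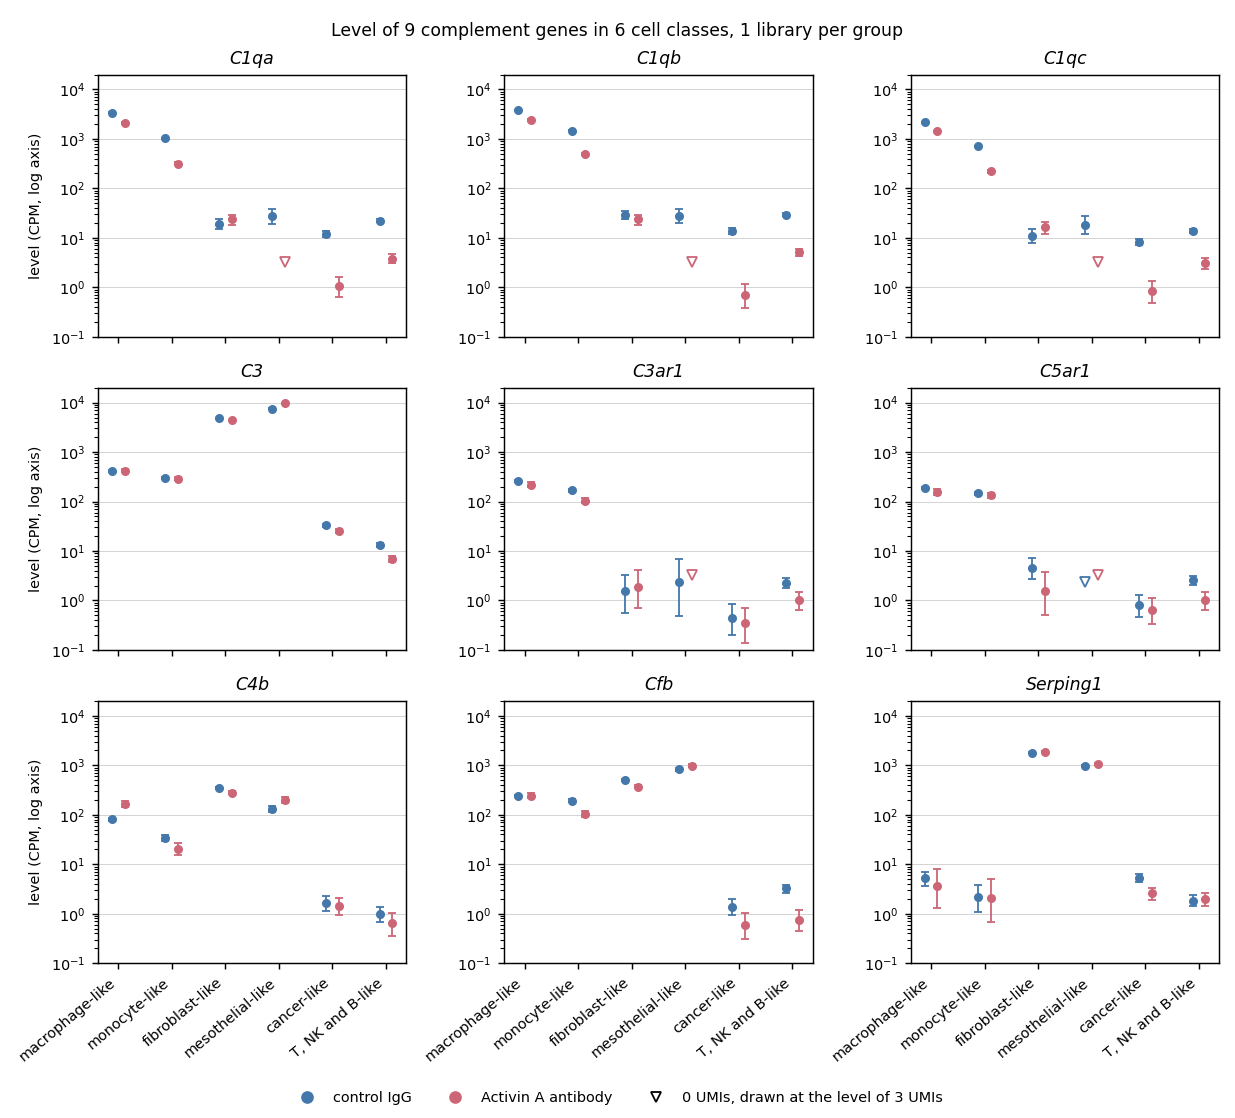
Level of each of the 9 genes in CPM (log axis) in 6 cell classes, for the control IgG library (blue) and the Activin A antibody library (red). Points are sums over the cells of a class, bars are exact 95% Poisson intervals (counting error only), and open triangles mark 0 UMIs, drawn at the level of 3 UMIs. The C1q chains and the receptors C3ar1 and C5ar1 are highest in macrophage-like cells, C3 and Cfb in mesothelial-like cells, and Serping1 and C4b in fibroblast-like cells.

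Most C1q lay in macrophage-like cells. C1qa, the A chain, stood at 3410 CPM (control IgG) and 2128 CPM (antibody) in macrophage-like cells, against 18.9 and 23.6 CPM in fibroblast-like cells. The log2 ratio of macrophage-like over fibroblast-like cells was 7.50 (7.17 to 7.85) and 6.50 (6.17 to 6.85), or 181-fold and 90.3-fold. C1qb was 132-fold and 103-fold and C1qc 196-fold and 87.3-fold higher in macrophage-like cells. In fibroblast-like cells nearly all of it came from few cells. A C1qa UMI was seen in 11.8% of fibroblast-like cells of the control IgG library and 1.70% of those of the antibody library, and the richest 10% of cells held 94.6% and 100% of the C1qa UMIs, up to 36 and 46 in 1 cell. T, NK and B-like cells, which are not known to make C1q, had C1qa UMIs in 5.05% and 0.858% of cells, at median depths of 4829 and 4215 UMIs against 15100 and 9561 in fibroblast-like cells. Thinned to 2000 UMIs per cell, which left out 2 fibroblast-like cells of each library and 109 and 147 T, NK and B-like cells, the shares were 2.62% and 1.07% in fibroblast-like cells and 2.20% and 0.401% in T, NK and B-like cells. The C1qa level of fibroblast-like cells in the control IgG library was therefore at the level of lymphocytes (18.9 against 22.0 CPM), and in the antibody library above it (23.6 against 3.81 CPM), there carried by 1.70% of cells. The 9 macrophage markers summed to 139 and 106 CPM in fibroblast-like cells, none of them at 0, and their part in these C1q values was not tested. Mesothelial-like cells had no C1q UMI in the antibody library, which allows up to 3.23 CPM per chain, and 27.1 CPM of C1qa in the control IgG library.

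The 3 chains kept a near-fixed proportion. C1qb made up 41.0% of C1q UMIs in macrophage-like cells of the control IgG library and 40.5% in the antibody library, C1qa 36.2% and 35.7%, and C1qc 22.8% and 23.8%. Monocyte-like cells held relatively more C1qb, 46.0% (45.3% to 46.8%) and 47.9% (45.9% to 49.9%), and less C1qa, 31.9% and 30.7%, in both libraries. In free RNA, taken from barcodes under 100 UMIs, C1qb made up 43.9% and 40.7% of C1q UMIs. Macrophage-like cells held 74.3% of all C1q UMIs of kept cells in the control IgG library and 68.9% in the antibody library, and with monocyte-like cells 91.0% and 85.9%. The fibroblast-like and mesothelial-like share was 0.332% and 1.39%. Within the macrophage-like class, C1q was spread over most cells: a C1qb UMI was found in 88.8% and 86.1% of them, and the richest 10% held 30.0% and 34.1% of C1qb UMIs. Cells with a UMI of Pf4 or Ccl8, 2 chemokine genes of tissue macrophages, had 10860 and 7187 CPM of C1q, and those without had 8027 and 4674 CPM.

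The anaphylatoxin receptors followed C1q but at a smaller contrast to monocyte-like cells. C3ar1, the C3a receptor, stood at 256.6 and 221 CPM in macrophage-like, 169 and 104 CPM in monocyte-like and 1.53 and 1.91 CPM in fibroblast-like cells, the last from 6 UMIs in each library. C5ar1, the C5a receptor, stood at 187 and 156 CPM in macrophage-like, 147 and 134 CPM in monocyte-like and 4.59 and 1.59 CPM in fibroblast-like cells, beside 2.54 and 1.01 CPM in the lymphocyte classes. Macrophage-like cells exceeded monocyte-like cells by 0.60 (0.49 to 0.72) and 1.09 (0.85 to 1.33) on the log2 scale for C3ar1, but for C5ar1 by 0.34 (0.22 to 0.47) and 0.23 (-0.02 to 0.47), an interval that reaches 0 in the antibody library. For C1qa the same contrast was 1.74 and 2.76. Macrophage-like and monocyte-like cells together held 90.0% and 86.1% of C3ar1 UMIs and 84.3% and 77.2% of C5ar1 UMIs.

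Most C3 UMIs lay in the stroma-like classes. C3 stood at 4877 CPM (control IgG) and 4435 CPM (antibody) in fibroblast-like cells and at 7481 and 9773 CPM in mesothelial-like cells, against 410.3 and 418 CPM in macrophage-like cells and 13.4 and 6.90 CPM in T, NK and B-like cells. Fibroblast-like cells were 11.9-fold and 10.6-fold above macrophage-like cells, and mesothelial-like cells a further 1.53-fold and 2.20-fold above fibroblast-like cells. These 2 classes are not cleanly apart. The 8 fibroblast markers summed to 12630 and 12190 CPM in mesothelial-like cells, and Leiden clusters placed all 72 of those cells with the fibroblasts. C3 was not lacking in macrophage-like cells. A C3 UMI was seen in 71.1% and 64.1% of them, against 6.61% and 3.71% of lymphocytes. After thinning the shares were 43.2% and 42.3% against 2.45% and 1.48%. Dendritic-like cells had C3 at 12.8 and 9.77 CPM (12 and 7 UMIs), near the level of lymphocytes. Fibroblast-like and mesothelial-like cells, 3.02% and 4.10% of kept cells, held 79.8% and 88.3% of all C3 UMIs.

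Serping1 was the most stromal member. Its level was 1815 and 1859 CPM in fibroblast-like and 975 and 1067 CPM in mesothelial-like cells, and 5.16 and 3.64 CPM in macrophage-like cells, from 40 and 6 UMIs. The log2 ratio of macrophage-like over fibroblast-like cells was -8.46 (-8.95 to -8.01) and -9.00 (-10.45 to -7.88). A Serping1 UMI was seen in 99.1% and 100% of fibroblast-like cells, and the stroma-like classes together held 94.9% and 96.1% of all Serping1 UMIs. C1q and the gene for the inhibitor of its proteases thus lay in different cell classes. In contrast to C3 and Cfb, Serping1 was lower in mesothelial-like than in fibroblast-like cells, by 0.90 and 0.80 on the log2 scale.

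Cfb and C4b were found on both sides, with the smallest ratios among the members. Cfb, which forms the alternative pathway convertase with C3, stood at 508 and 369.9 CPM in fibroblast-like, 826 and 989 CPM in mesothelial-like and 241 and 245 CPM in macrophage-like cells, so fibroblast-like cells exceeded macrophage-like cells by only 2.11-fold and 1.51-fold. In the control IgG library the 2 sides held near equal parts of the Cfb UMIs: 44.7% in macrophage-like and monocyte-like cells and 47.8% in the stroma-like classes. In the antibody library the parts were 22.2% and 71.1%. Both cell numbers (942 and 237 macrophage-like cells) and levels (193 and 104 CPM of Cfb in monocyte-like cells) differed between the libraries. The part of each in this difference was not tested. C4b stood at 346 and 282 CPM in fibroblast-like, 132 and 199 CPM in mesothelial-like and 80.6 and 165 CPM in macrophage-like cells. Macrophage-like cells held 25.2% and 17.2% of C4b UMIs and the stroma-like classes 61.8% and 67.7%.

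**Figure D2:**
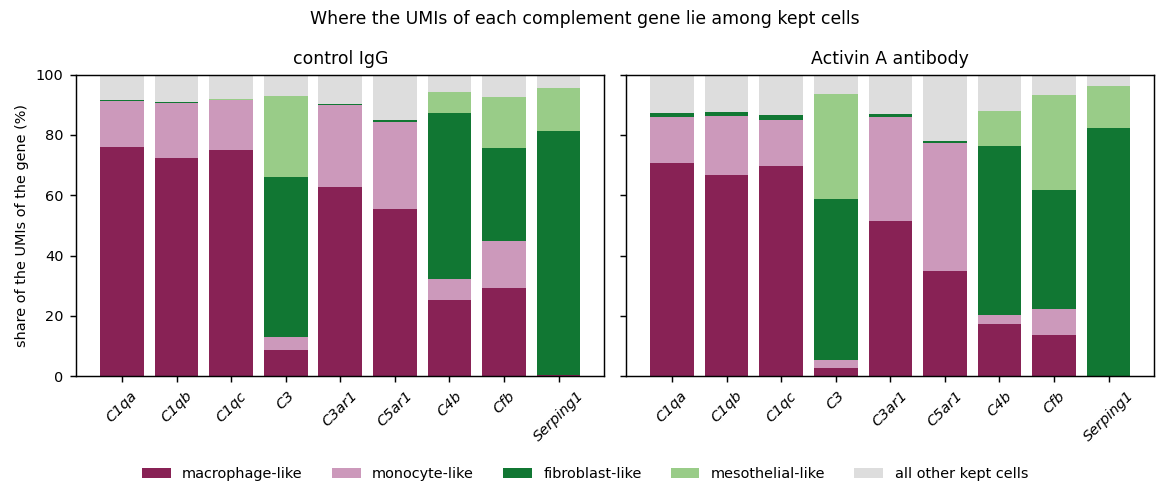
Share of the UMIs of each gene that lay in macrophage-like, monocyte-like, fibroblast-like, mesothelial-like and all other kept cells, in percent, for each library. C1q chains and receptors lie in the myeloid classes, C3 and Serping1 in the stroma-like classes, and Cfb on both sides, with 44.7% in the 2 myeloid classes with control IgG and 22.2% with the antibody.

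Within fibroblast-like cells the 4 stromal members were not even. Cells were split into those with Acta2 plus Tagln at 1 UMI per 10000 or more, genes of contractile fibroblasts (80 and 37 cells), of the others those with a UMI of Pi16 or Car3 (74 and 108 cells), and the rest (66 and 90 cells). C3 stood at 8772 and 5502 CPM in Pi16 or Car3 cells against 2982 and 2285 CPM in Acta2 or Tagln cells, a difference of 1.56 and 1.27 on the log2 scale. C4b stood at 839 and 479 CPM against 136 and 123 CPM, a difference of 2.62 (2.43 to 2.82) and 1.97 (1.68 to 2.26). Serping1 differed by 1.60 and 1.99 and Cfb by 1.26 and 0.47. All 4 were thus lower in the Acta2 or Tagln subset than in the Pi16 or Car3 subset in both libraries. The share of all genes lower in that subset was not computed, so this is only a description. In the rest all 4 lay between these subsets. There C3 stood at 5747 and 5409 CPM, the second near the 5502 CPM of Pi16 or Car3 cells. C4b stood at 367 and 236 CPM, Cfb at 488 and 367 CPM and Serping1 at 2396 and 1918 CPM. The Acta2 or Tagln cells were the deepest, at median depths of 26870 and 23322 UMIs against 10631 and 7995 UMIs, and the part of depth in these differences was not tested.

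**Figure D3:**
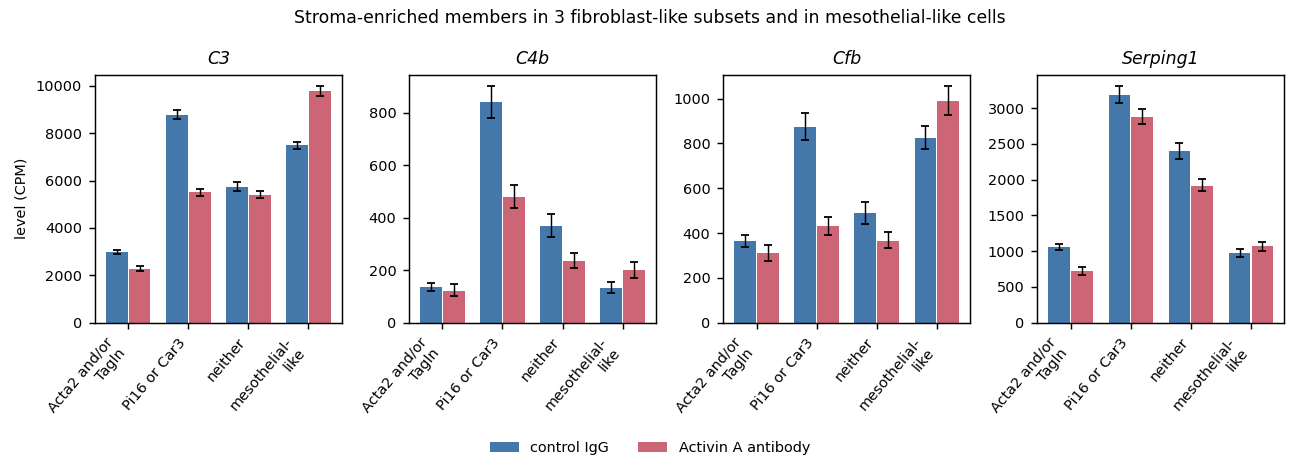
Level in CPM (linear axis from 0) of C3, C4b, Cfb and Serping1 in 3 subsets of fibroblast-like cells and in mesothelial-like cells, for the control IgG library (blue) and the antibody library (red). Bars are sums over cells and error bars exact 95% Poisson intervals. C4b and Serping1 are highest in the Pi16 or Car3 subset in both libraries, and C3 and Cfb of the antibody library in mesothelial-like cells.

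The comparison of the libraries asked whether these levels differed when Activin A, a growth factor of the TGFβ family, was neutralized. Over all kept cells, C1q was 4.98-fold lower with the antibody for C1qb (log2 ratio -2.32), 5.01-fold lower for C1qa and 4.72-fold lower for C1qc. Fewer macrophage-like cells go with this, since they held 9.67% of kept UMIs with control IgG and 2.88% with the antibody. Within macrophage-like cells the log2 ratios of antibody over control IgG were -0.68 (-0.73 to -0.63 for both) for C1qa and C1qb and -0.60 for C1qc, and summed C1q went from 9426 to 5961 CPM (-0.66, -0.69 to -0.63). The log2 ratio was -0.60 (-0.63 to -0.56) in macrophage-like cells with Pf4 or Ccl8 and -0.78 (-0.83 to -0.73) in those without. With the mix of the subsets held at that of the control IgG library it was -0.67. Cells with Pf4 or Ccl8 held 49.5% (control IgG) and 51.2% (antibody) of macrophage-like UMIs, so holding this mix could change little. In monocyte-like cells C1q stood at 3203 and 1027 CPM, a log2 ratio of -1.64 (-1.70 to -1.58). C1q in T, NK and B-like cells was also lower with the antibody, at 64.9 and 11.9 CPM, as it was in free RNA, at 1040 and 404 CPM. Markers of red blood cells, which are no macrophage genes, summed in macrophage-like cells to 1.03 CPM (control IgG) and 440.4 CPM (antibody), and the part of such RNA in these differences was not tested.

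C4b was the only member past a 2-fold difference in macrophage-like cells (a log2 ratio of 1 or more either way with at least 20 UMIs), and none was past it in the other direction. Of 10998 genes, 3.45% were past it as higher and 3.57% as lower with the antibody. The median log2 ratio of the 9 members was -0.26, against 0.02 for all genes. C3 (0.03) and Cfb (0.02) had intervals that held 0. C3ar1 (-0.21, -0.38 to -0.05) and C5ar1 (-0.26, -0.45 to -0.07) were slightly lower. The C4b call was lost with a stricter gate (0.94), with means over cells (0.71), without the 1% of cells richest in C4b (0.82), with Leiden clusters (0.68) and with monocyte-like cells joined (0.36), and its sign was the same in each. With Leiden clusters the 3 C1q chains passed the limit instead, as lower with the antibody (C1qa -1.25, C1qb -1.22, C1qc -1.16), as they did with monocyte-like cells joined (-1.21, -1.19 and -1.14), and Cfb stood at -0.45 and -0.46 in these settings. In monocyte-like cells C3ar1 was lower by 0.70 and Cfb by 0.90 on the log2 scale, and C3 was near equal, at 302 and 292 CPM.

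**Figure D4:**
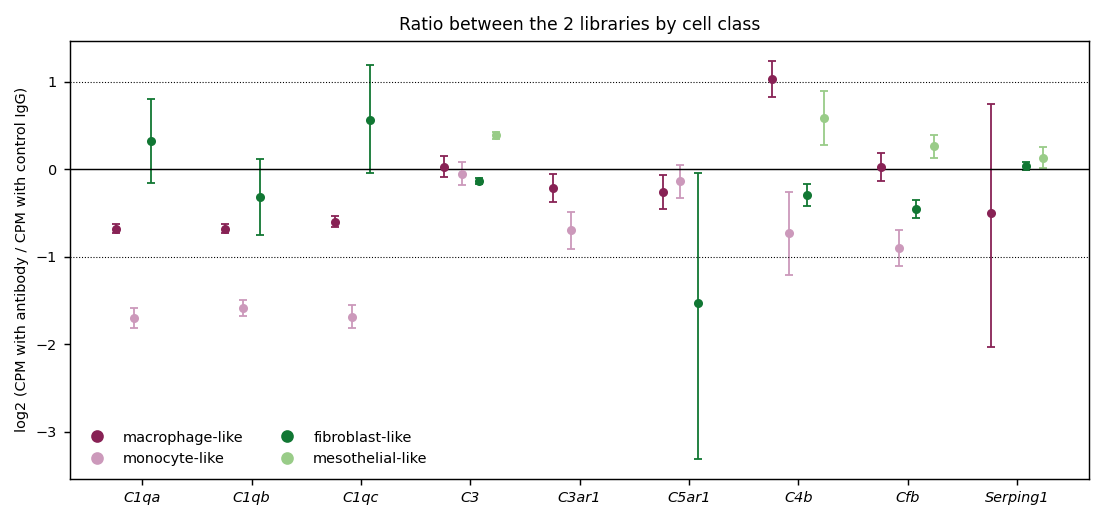
Log2 ratio of the level with the Activin A antibody over that with control IgG for each gene in 4 cell classes, with exact 95% conditional binomial intervals (counting error only), where the 2 libraries hold at least 20 UMIs together and neither is at 0. The solid line marks no difference and the dotted lines a 2-fold difference. The C1q chains lie near -0.7 in macrophage-like and below -1.5 in monocyte-like cells, and C4b lies above 0 in macrophage-like and mesothelial-like cells and below it in monocyte-like and fibroblast-like cells.

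Much of the C4b of macrophage-like cells lay in few cells. C4b went from 80.6 CPM (625 UMIs) to 165 CPM (272 UMIs), a log2 ratio of 1.03 (0.82 to 1.24). The share of cells with a C4b UMI was 19.0% (16.5% to 21.7%) and 17.3% (12.7% to 22.7%), without thinning, at median depths of 7894 and 6464 UMIs. Cells with 5 or more C4b UMIs, 32 of 942 and 13 of 237, held 58.2% and 83.5% of the C4b UMIs. Their median depth was 10441 UMIs, against 7508.5 UMIs in the other macrophage-like cells. The part of depth in these values was not tested. Apart from complement genes, the 10 genes that led these 45 cells over other macrophage-like cells by fold (CPM plus 10) were Prg4, Cd5l, Alox15, Slpi, Marco, Serpinb2, Ltbp1, Fgfr1, Cxcl13 and Ednrb. Prg4 stood at 903 against 7.54 CPM, Cd5l at 1076 against 12.6 CPM and Alox15 at 524 against 2.14 CPM. Prg4 and Alox15 are known as genes of the large resident macrophages of the mouse peritoneal cavity, Marco is a scavenger receptor and Cxcl13 a B cell chemokine. The fibroblast markers summed to 36.4 CPM in these cells and 42.6 CPM in the other macrophage-like cells. Serping1 stood at 21.1 against 3.94 CPM, on few UMIs, since the whole class held 40 and 6. Slpi, which also leads the mesothelial-like cells, stood at 2412 against 61.9 CPM. The part of RNA from stromal cells in these values was not tested.

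Macrophage-like cells with UMIs of 3 or more of these 10 genes, a split made after the values were seen and from the C4b-rich cells, so that its C4b level is a description, made up 3.29% of the class with control IgG (31 cells) and 7.59% with the antibody (18 cells). They held 42.1% and 85.7% of the C4b UMIs of macrophage-like cells, at 652 and 1417 CPM. The other macrophage-like cells had 49.2 and 26.2 CPM of C4b, and since these 49 cells were chosen through C4b, no difference between the libraries is read from either set. The same cells held more Cfb, at 999.7 and 839 CPM against 199.7 and 179.6 CPM, and more C3, at 819 and 839 CPM against 388 and 371 CPM. C1qa was 5068 and 2766 CPM in them against 3319 and 2058 CPM. Gata6, the transcription factor of large peritoneal macrophages and not among the 10 genes, had 69.6% of its macrophage UMIs in them (control IgG, 16 UMIs in 10 cells) and 95.7% (antibody, 22 UMIs in 9 cells). Icam2, Timd4, Tgfb2 and Selp were looked at as further genes of large peritoneal macrophages. With control IgG their shares were 44.35%, 46.15%, 45.45% and 76.19%, those of Timd4 and Tgfb2 on 6 and 5 UMIs. With the antibody they were 72.58%, 77.78%, 100% and 100%. C5ar1 did not stand out, at 159 and 225 CPM in them and 188 and 149 CPM in the other cells. Among the cells with 3 or more of the 10 genes, Serping1 had 6 UMIs in 2 cells (control IgG) and 5 UMIs in 1 cell (antibody).

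**Figure D5:**
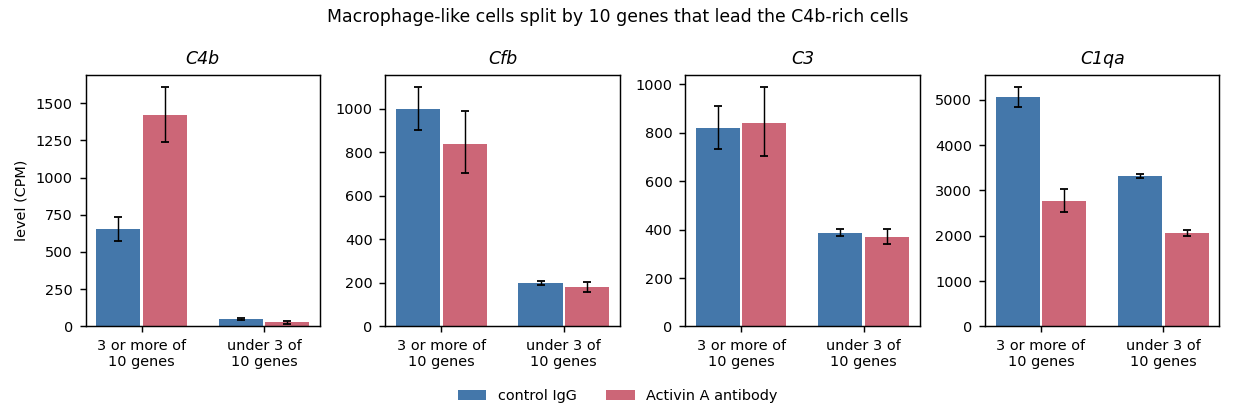
Level in CPM (linear axis from 0) of C4b, Cfb, C3 and C1qa in macrophage-like cells with UMIs of 3 or more of the 10 genes that lead C4b-rich cells (31 and 18 cells) and in all other macrophage-like cells (911 and 219 cells), for the control IgG library (blue) and the antibody library (red), with exact 95% Poisson intervals. C4b stands at 652 and 1417 CPM in the first and at 49.2 and 26.2 CPM in the second.

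Over the fibroblast-like class as a whole the members differed little between the libraries. Of the 8 with at least 20 UMIs, 1 was past the 2-fold limit, C5ar1, as lower with the antibody, on 18 and 5 UMIs (-1.53, -3.31 to -0.04), at levels near the 2.54 and 1.01 CPM of lymphocytes. Of 12181 genes, 3.13% were past the limit as lower. The median log2 ratio of the 8 was -0.22, against 0.03 for all genes. C3 stood at -0.14 (-0.17 to -0.11), C4b at -0.30 (-0.42 to -0.17), Cfb at -0.46 (-0.56 to -0.35) and Serping1 at 0.03 (-0.02 to 0.08). The C3 value turned to 0.021 with Leiden clusters and 0.034 with mesothelial-like cells joined. Both settings bring the 72 mesothelial-like cells into the class, so they are not separate checks. The few C1q UMIs of the class gave intervals that held 0, at 0.32 for C1qa, -0.32 for C1qb and 0.57 for C1qc. Without the 1% of cells richest in the gene they were -4.35 (-9.71 to -1.74) for C1qa and -3.53 (-5.86 to -1.89) for C1qb, and with Leiden clusters C1qb was -0.84 (-1.25 to -0.44), so no direction is given for C1q in this class.

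The make-up of the fibroblast-like class differed between the libraries, since Acta2 or Tagln cells held 57.2% of its UMIs with control IgG and 32.2% with the antibody. Within each of the 3 subsets all 4 stromal members had values below 0. The share of all genes below 0, or past the 2-fold limit, was not computed for the subsets. These values are therefore only a description, and a shift common to all genes of a subset would look the same. For Cfb the log2 ratio was -1.03 (-1.20 to -0.86) in Pi16 or Car3 cells, which is past the 2-fold limit. It was -0.23 in Acta2 or Tagln cells and -0.41 in the rest. C3 was lower by 0.67, 0.38 and 0.09 in the same order, and C4b by 0.81, 0.15 (interval -0.47 to 0.15) and 0.63. Serping1, near equal over the class, was lower by 0.15 in Pi16 or Car3 cells, by 0.54 in Acta2 or Tagln cells and by 0.32 in the rest. With the mix of subsets held at that of the control IgG library, the log2 ratios became -0.42 for C3, -0.60 for C4b, -0.54 for Cfb and -0.31 for Serping1. Mesothelial-like cells had the other sign, with C3 higher by 0.39 (0.34 to 0.43), C4b by 0.59 (0.28 to 0.90), Cfb by 0.26 (0.13 to 0.39) and Serping1 by 0.13 (0.01 to 0.25), over 45 and 27 cells.

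Of 44 other complement genes, 25 had at least 20 UMIs in macrophage-like and fibroblast-like cells together. Of these, 14 were higher in fibroblast-like cells, 8 in macrophage-like cells and 3 in neither, by the rule used for the members. Among all 13682 genes the shares were 30.5% higher in fibroblast-like and 20.5% higher in macrophage-like cells. The classical pathway genes with enough UMIs, C1ra, C1s1 and C2, were all 3 stromal. C1s1 stood at 708 and 667.5 CPM in fibroblast-like cells with 18 and 4 UMIs in macrophage-like cells, and C1ra at 279.8 and 278 CPM. Macrophage-like cells had instead the positive regulator properdin, Cfp, at 380.1 and 422 CPM against 5.61 and 7.64 CPM in fibroblast-like cells. They also had the chains of complement receptor 3, Itgam at 589 and 555 CPM and Itgb2 at 304 and 299.9 CPM. These 3 genes were not particular to them. Monocyte-like cells had Cfp at 250 and 197 CPM, Itgam at 470 and 404 CPM and Itgb2 at 291 and 245 CPM. Clu, a soluble regulator of the terminal complex, stood at 833 and 510.3 CPM in fibroblast-like cells and at 1459 and 1378 CPM in mesothelial-like cells, where C1s1 stood at 651 and 677 CPM. Past the 2-fold limit between libraries in macrophage-like or fibroblast-like cells were Fcna, a ficolin of the lectin pathway, from 29.5 to 74.5 CPM in macrophage-like cells (1.34), Itgax, the α chain of complement receptor 4, from 20.2 to 49.1 CPM (1.28), and Hc, the C5 gene, from 6.88 to 2.87 CPM in fibroblast-like cells (-1.26, on 27 and 9 UMIs). Of all genes, 3.45% were past it as higher in macrophage-like cells and 3.13% as lower in fibroblast-like cells. In monocyte-like cells Fcna had the other sign (-1.64, -3.61 to -0.12, on 27 and 4 UMIs), and Fcnb, another ficolin (5.87, 3.27 to 11.23, on 1 and 27 UMIs), and Cd93, a receptor of myeloid and endothelial cells (1.31, on 96 and 110 UMIs), were past the limit as higher with the antibody. The share of all genes past the limit was not computed for monocyte-like cells, so these values are only a description. Fcna lay with C4b, 55.9% and 88.6% of its macrophage UMIs being in the 31 and 18 cells with 3 or more of the 10 genes. The median log2 ratio of the list was 0.02 over 16 genes in macrophage-like and -0.07 over 20 genes in fibroblast-like cells.

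As a description, patterns were compared over 16 points, 8 classes in 2 libraries, among 6763 genes. A class needed at least 30 cells in each library, which left out the mesothelial-like cells (45 and 27). C3 and C4b differ there: the log2 ratio of mesothelial-like over fibroblast-like cells was 0.62 and 1.14 for C3. For C4b it was -1.39 and -0.50. The points of 1 library share its depth and free RNA. By Pearson r of log2(CPM + 1), the genes most like C1qa were C1qc (0.98), C1qb (0.98) and Pilra (0.96), those most like C3 were Rnase4 (0.98), C4b (0.97) and Pdpn (0.97), and those most like Serping1 were Thbs2, Ndn and Runx1t1 (0.99 each). For C5ar1 they were Msr1 (0.99), Pilra (0.99) and Arg1 (0.99), for C3ar1 Mfsd1, Cd300ld (0.98 each) and Arg2 (0.97), and for Cfb Hacd4 (0.96), Saa3 (0.95) and Pnp (0.94). C4b was most like Rnase4 (0.98), C3 and Pdpn, C1qb most like C1qc, C1qa and Arg1, and C1qc most like C1qa, Pilra and C1qb.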

How the data were processed

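Single-cell 3′ RNA sequencing counts of 2 libraries (control IgG, Activin A antibody; 1 library per group, tissue pooled over mice) were analysed, grouped by their labels. The authors deposited unfiltered, unnormalized UMI counts for each gene in each barcode. Per the file headers they come from Cell Ranger 4, while the submitters' processing notes name version 7.0.1 and the build mm10. The labels and the paper give different chemistry versions.

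A barcode counted as a cell if it had 1000 to 8500 genes, 1000 to 100000 UMIs and no more than 10% of UMIs from mitochondrial genes (medians of 5719 and 4660 UMIs). For each class, a score was the mean over its markers of log2(1 + UMIs per 10000). The highest class was taken where at least 3 markers were detected (2 for small marker lists) and its score was at least 1.5 times that of any class of another lineage. Stroma-like cells with at least 5 of 7 mesothelial markers were called mesothelial-like (28 stroma-like cells had 4 or 5). The gate rule was set after the data were seen. No doublet caller was run. UMIs were summed per class and library to CPM. With 1 library per group no test was made. Levels have exact Poisson, shares Clopper-Pearson and log2 ratios conditional binomial 95% intervals. A level of 0 allows 3 UMIs. The interval code was tested on simulated data. All 9 members were named, and other complement genes where they passed the 2-fold limit or were among the 3 highest of the list in a class. A result of 1 gene that this rule named is not reported here. The members, gene lists and comparisons were chosen with earlier results of these data known. Alternatives were stricter gates, Leiden clusters (2000 variable genes without complement genes, 30 components, 15 neighbours, resolution 0.5), a 5% mitochondrial limit, removal of the 5% deepest cells or of the 1% richest in a gene, means over cells and subtraction of the lymphocyte level, and 3 more chosen after seeing the data. Python 3.11.15, numpy 2.4.6, scipy 1.17.1, pandas 2.3.3, scanpy 1.11.5, leidenalg 0.10.2 and matplotlib 3.10.9 were used.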

Additional observations from a re-analysis of the deposited data

Results flagged for a closer look

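The members C4b, C3 and Cfb had values on opposite sides of 0 in different cell classes when the antibody library was set against the control IgG library, with intervals for counting error that exclude 0. C4b was higher with the antibody in macrophage-like cells (log2 ratio 1.03) and mesothelial-like cells (0.59) and lower in monocyte-like cells (-0.73) and fibroblast-like cells (-0.30). C3 was higher in mesothelial-like cells (0.39) and lower in fibroblast-like cells (-0.14). Cfb was higher in mesothelial-like cells (0.26) and lower in monocyte-like cells (-0.90) and fibroblast-like cells (-0.46). Whether the classes differ was not tested, since each group has 1 library. The mesothelial-like values rest on 45 and 27 cells, and much of the C4b of macrophage-like cells lay in the few C4b-rich cells described above.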

How the results depend on the processing

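No paired analysis was possible because there is 1 library a group, and for the same reason no replicate could be left out. The counts of members higher in macrophage-like (5) and in fibroblast-like cells (4) were kept under all 10 alternatives. The count past the 2-fold limit between libraries in macrophage-like cells, 1 as reported, was 0 with a stricter gate, with means over cells and without the 1% of cells richest in the gene, 2 at a 5% mitochondrial limit (C4b, and Serping1 at -2.94) and 3 with Leiden clusters or with monocyte-like cells joined (the C1q chains, as lower, without C4b). The count in fibroblast-like cells, 1 as reported, was 2 with means over cells (C5ar1, and C1qb at -1.15), with the lymphocyte level subtracted (C5ar1, and C1qb at 7.97 against a control level near that of lymphocytes) and without the 1% richest cells (C1qa at -4.35 and C1qb at -3.53). The log2 ratio of C4b in macrophage-like cells lay between 0.36 (monocyte-like cells joined) and 1.07. The cause was not tested. The share of C1q UMIs in macrophage-like cells (74.3% and 68.9%, control IgG first) was 73.7% and 67.3% with a stricter gate, 97.7% and 96.0% with Leiden clusters, whose macrophage clusters take in most monocyte-like cells, 72.4% and 67.0% with means over cells, 73.1% and 66.9% without the 1% richest cells and 91.0% and 85.9% with monocyte-like cells joined. Without the 5% deepest cells it was 75.8% with control IgG. C3 in fibroblast-like cells (-0.14) changed sign to 0.021 with Leiden clusters, whose fibroblast clusters take in the 72 mesothelial-like cells, and to 0.034 with mesothelial-like cells joined. Of 340 single-gene values under the alternatives, 234 stayed within the reported interval and 106 left it. The sign changed in 16, of which 14 had a reported interval that held 0 (C1q in fibroblast-like cells, C3 and Cfb in macrophage-like cells) and 2 are the C3 values above. No lymphocyte-subtracted share was computed, and ratios to a level at or under that of lymphocytes could not be given. The depth of 45 and 27 mesothelial-like cells and of under 20 UMIs for C3ar1 in fibroblast-like cells limits what can be said of them.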

Other observations

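C5ar1 was also present in small sets of cells. In neutrophil-like cells, where the C5a receptor is known to be abundant, it stood at 584 CPM in 19 cells of the control IgG library (40 UMIs) and 102 CPM in 16 cells of the antibody library (19 UMIs). With Leiden clusters, 32 of these cells lay in macrophage clusters. Those of the control IgG library had 1139 CPM of C1q and those of the antibody library had none. The part of macrophage RNA in the C5ar1 values was not tested. A Leiden cluster of 14 cells held 13 cells that the gates placed in no class and 1 placed in the mast cell class. Its cell type was not settled. It had 357 CPM of C5ar1 (15 UMIs in 7 cells) and 214 CPM of C3ar1 (9 UMIs in 6 cells). It had 2 C1qa UMIs and no UMI of C1qc, C4b, Cfb or Serping1, which allows up to 71.3 CPM of each. Dendritic-like cells had no C5ar1 UMI in 107 and 76 cells, which allows up to 3.19 and 4.19 CPM. Over all kept cells C3 was near equal between the libraries (log2 ratio 0.01, -0.01 to 0.04) and Serping1 slightly higher with the antibody (0.17).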
